A study of Rattus norvegicus with 18 samples.

Results

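The core circadian clock genes are described here as 6 rows, chosen by Ensembl identifier, of the 32545 in the table of rat heart RNA levels. They are Bmal1, also called Arntl (ENSRNOG00000014448), Clock (ENSRNOG00000002175), Per1 (ENSRNOG00000007387), Per2 (ENSRNOG00000020254), Nr1d1 (ENSRNOG00000009329) and Dbp (ENSRNOG00000021027). The symbols came with the selection, since the table does not pair identifiers with names. The hearts came from 18 male Wistar rats, an outbred strain, of about 250 g at the start, with 6 animals and 6 libraries per group. Saline rats had 5 weekly intravenous saline injections. DOX+saline rats had 5 weekly intravenous injections of doxorubicin at 3 mg/kg per week, with saline under the skin, and DOX+AICAR rats had the same doxorubicin with 0.5 g/kg of AICAR under the skin. Doxorubicin is an anthracycline cancer drug that injures heart muscle, and AICAR is a nucleoside whose phosphorylated form activates the energy sensor AMPK. The labels give no time of day of tissue collection and no lighting or feeding schedule. All saline animals carry numbers 51 to 56, all DOX+saline animals 1 to 6 and all DOX+AICAR animals 7 to 12. Treatment and number block thus cannot be told apart in any comparison, that between the doxorubicin groups included. The part of collection time in the differences was not tested. Values come from bulk heart tissue, in which fewer cells of a type and less RNA per cell cannot be told apart.

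The circadian clock is a feedback loop of transcription that runs in most cells, heart muscle cells included. The proteins CLOCK and BMAL1 form a pair that binds E-box elements and switches on Per1, Per2, Nr1d1 and Dbp. PER proteins then hold back CLOCK and BMAL1, while REV-ERB alpha, the product of Nr1d1, represses Bmal1 through RORE elements. Bmal1 RNA therefore peaks in another part of the day than Per and Dbp RNA, whereas Clock RNA swings little in most tissues. In the heart the clock is known for timing metabolism and electrical properties over the day.

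The elements through which these genes are known to control one another could be looked for in promoter windows. RefSeq sequences of the build GRCr8 were matched by symbol for 6 of 6 genes, giving 8 windows of 250 bases ending just before a start site. The letters searched on both strands were CACGTG (E-box), CACGTT (an E-box variant, added after the Per2 window was seen), TTATGTAA (D-box, the element bound by DBP and its relatives) and AGGTCA (the core of a RORE). The 3 windows below each hold elements of the loop, in capitals. Another window, before the outer Nr1d1 start, also held an element and is not printed. All 6 genes, with or without a match, differed in level between DOX+saline and saline hearts.
Bmal1, chr1:176766078-176766327, plus strand: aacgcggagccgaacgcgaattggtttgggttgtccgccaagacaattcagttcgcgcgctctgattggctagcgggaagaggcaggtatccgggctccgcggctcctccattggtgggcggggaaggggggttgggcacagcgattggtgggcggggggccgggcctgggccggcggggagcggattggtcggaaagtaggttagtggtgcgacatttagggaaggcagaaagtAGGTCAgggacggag
Per2, chr9:99496994-99497243, minus strand: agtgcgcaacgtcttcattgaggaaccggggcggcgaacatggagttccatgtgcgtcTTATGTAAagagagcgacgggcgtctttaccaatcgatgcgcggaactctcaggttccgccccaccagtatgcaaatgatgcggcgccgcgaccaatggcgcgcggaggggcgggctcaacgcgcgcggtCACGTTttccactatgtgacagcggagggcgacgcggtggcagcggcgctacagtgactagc
Nr1d1, chr10:84229455-84229704, minus strand: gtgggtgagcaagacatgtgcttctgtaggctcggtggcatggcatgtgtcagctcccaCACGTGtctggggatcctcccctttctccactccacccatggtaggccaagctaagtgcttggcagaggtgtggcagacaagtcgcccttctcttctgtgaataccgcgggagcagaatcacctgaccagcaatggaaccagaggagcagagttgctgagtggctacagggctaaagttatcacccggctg
The Bmal1 window held AGGTCA 15 to 10 bases before the start. The Per2 window held TTATGTAA 192 to 185 bases and CACGTT 62 to 57 bases before the start. The Nr1d1 window, which lies before a second start inside the gene, held CACGTG 191 to 186 bases before it. The window before the outer Nr1d1 start held CACGTT on the opposite strand, and the 4 windows of Clock, Per1 and Dbp held none of these letters. CACGTG reads the same on both strands, and no match overlapped another. Of 33469 rat promoter windows of that length, 5.59% held CACGTG, 4.07% CACGTT, 0.828% TTATGTAA and 14.1% AGGTCA. A match is a description of letters and was not tested as a site.

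Levels are in TPM (reads per gene length, scaled to a total of 1000000 in each library), so genes can be compared within a heart and a change is a change of share. Each member was well covered: reads recovered from the TPM values ranged from 163 for Bmal1 in its lowest DOX+saline heart to 5979 for Per1 in its highest, in libraries of 20.6 to 31.3 M reads (M, 1000000). Counting error was 7.83% of the value at that lowest point, so it is small against the differences below. In saline hearts the order of mean levels was Nr1d1 (64.4 TPM), Bmal1 (56.1), Clock (26.4), Dbp (20.2), Per1 (11.5) and Per2 (4.97). In DOX+saline hearts it was Dbp (142 TPM), Nr1d1 (97.3), Per1 (91.4), Per2 (25.1), Clock (20.1) and Bmal1 (10.6). Bmal1 thus went from next to the top to the bottom of the order. DOX+AICAR means ran Nr1d1 (81.8 TPM), Dbp (70.6), Per1 (48.9), Clock (22.97), Bmal1 (19.4) and Per2 (18.2). Neighbours in these orders whose means lay closer than the larger of their SDs were Nr1d1 and Bmal1 in saline, Nr1d1 and Per1 as well as Per2 and Clock in DOX+saline, and Nr1d1 and Dbp, Clock and Bmal1, and Bmal1 and Per2 in DOX+AICAR.

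**Figure D1:**
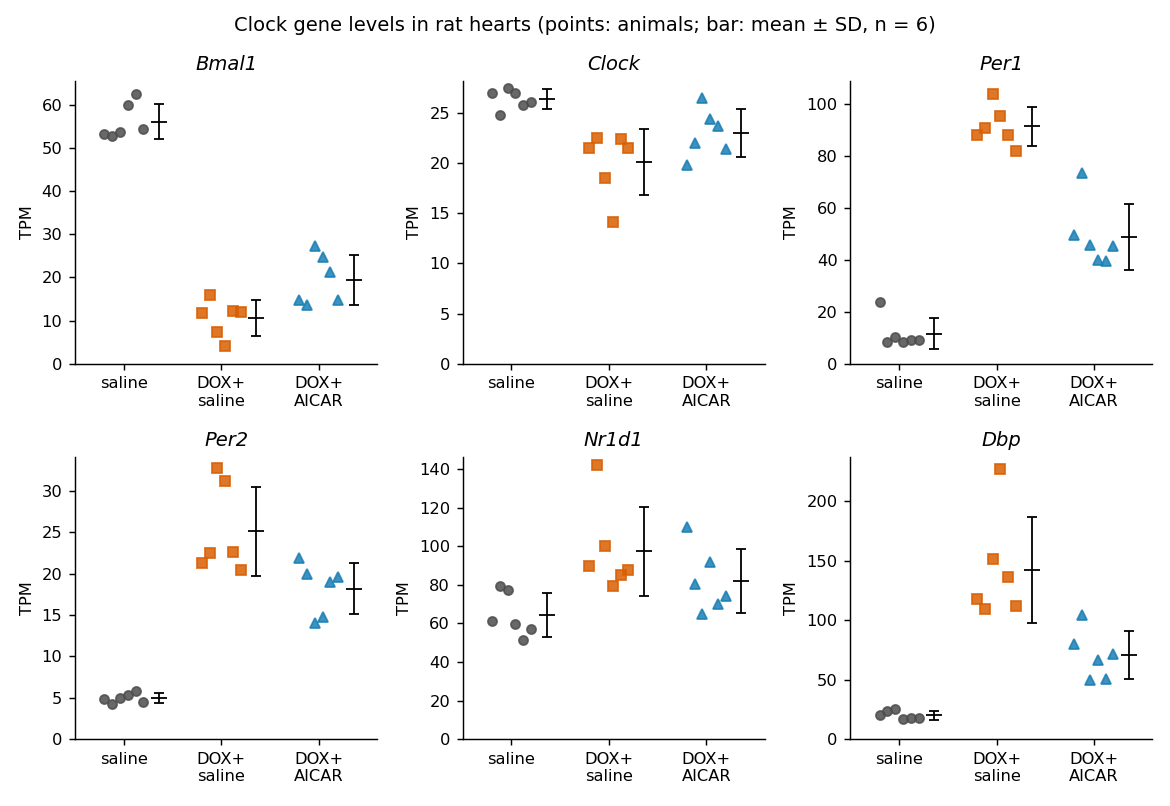
Levels of the 6 genes in TPM (vertical axes, from 0) in saline, DOX+saline and DOX+AICAR hearts; each point is 1 animal, and the bar beside the points is the group mean with its SD (n = 6). Bmal1 was at 52.8 TPM or more in every saline heart and at 27.3 TPM or less in every doxorubicin heart, and Per1, Per2 and Dbp lay the other way round.

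Hearts given doxorubicin were first compared with saline hearts, in DOX+saline against saline. These groups also differ in number series, so a difference cannot be assigned to doxorubicin alone. All 6 members passed the filter on low values and all 6 changed at adjusted p below 0.05 in the limma fit, where 58.0% of the 14732 genes tested changed. Of the 6, 4 were higher, as were 38.0% of all genes, and 2 were lower, as were 20.0%. Over all genes this split depended on scaling, with 5595 higher and 2943 lower as fitted, 3424 and 4919 after quantile normalization, and 4041 and 4396 after median-of-ratios scaling, while each of the 6 kept its direction. Because most of the transcriptome moved in this comparison, the sizes say more than the count: the median absolute log2 change was 2.25 over the 6 members and 0.26 over all genes tested. The groups did not overlap for 5 of the 6, against 32.2% of all genes.

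Bmal1, the activating partner of CLOCK, fell. Saline hearts had 53.3, 52.8, 53.7, 59.9, 62.6 and 54.5 TPM (animals 51 to 56), and DOX+saline hearts had 11.7, 15.9, 7.46, 4.08, 12.3 and 12.1 TPM (animals 1 to 6), so every treated heart was below every saline heart. The means, 56.1 ± 4.12 and 10.6 ± 4.16 TPM (SD, n = 6), differed 5.31-fold. On the log2(TPM + 1) scale the change was -2.40 (SE 0.23, limma adjusted p = 2.20e-07), the third largest decrease of all genes tested. The SDs in TPM were alike, so relative to the mean the DOX+saline hearts spread more widely (SD of log2(TPM + 1) 0.62 against 0.10), with animals 3 and 4 lowest.

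Clock, the other partner, had the smallest change of the 6 members as fitted. This change was still larger than the median absolute log2 change of all genes tested (0.26). Clock ranged from 24.8 to 27.5 TPM in saline (median 26.5) and from 14.1 to 22.5 TPM in DOX+saline (median 21.5), again without overlap. The log2 change was -0.39 (SE 0.09, limma adjusted p = 0.00164). The lowest value, 14.1 TPM, belonged to DOX+saline animal 4, which also had the lowest Bmal1.

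Per1 and Per2, which encode the inhibitors of the pair, rose. Per1 stood at 23.6, 8.37, 10.1, 8.39, 9.14 and 9.13 TPM in saline animals 51 to 56 and at 88.2, 90.7, 104, 95.5, 88.1 and 82.0 TPM in DOX+saline animals 1 to 6. Saline animal 51 was higher than its group, but still far below every doxorubicin heart. The log2 change was 2.99 (SE 0.20, limma adjusted p = 3.69e-09), and the means differed 7.98-fold. Per2 was the scarcest member in saline, at 4.83, 4.32, 5.01, 5.31, 5.88 and 4.47 TPM, against 21.2, 22.5, 32.7, 31.2, 22.6 and 20.4 TPM in DOX+saline. The log2 change of Per2 was 2.11 (SE 0.13, limma adjusted p = 1.84e-09), and the groups were apart.

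Dbp, a clock-driven transcription factor that carries the rhythm to output genes, rose about as much as Per1. It had 20.6, 23.8, 25.1, 16.7, 17.6 and 17.6 TPM in saline animals 51 to 56 and 118, 109, 151, 227, 137 and 112 TPM in DOX+saline animals 1 to 6. The means, 20.2 ± 3.55 and 142 ± 44.4 TPM (SD, n = 6), differed 7.03-fold. On the log2 scale Dbp rose by 2.72 (SE 0.19, limma adjusted p = 6.13e-09). Every treated heart was above every saline heart, and animal 4 was the highest.

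Nr1d1, which encodes the repressor of Bmal1, rose least of the 4. Saline hearts had 61.4, 79.5, 77.4, 59.8, 51.3 and 56.9 TPM, and DOX+saline hearts had 89.9, 142, 99.9, 79.2, 85.3 and 87.5 TPM. The groups touched, since DOX+saline animal 4 (79.2 TPM) lay just below saline animal 52 (79.5 TPM). The log2 change was 0.58 (SE 0.15, limma adjusted p = 0.0028), against 2.11 to 2.99 for Per1, Per2 and Dbp. These gaps between genes were not tested.

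**Figure D2:**
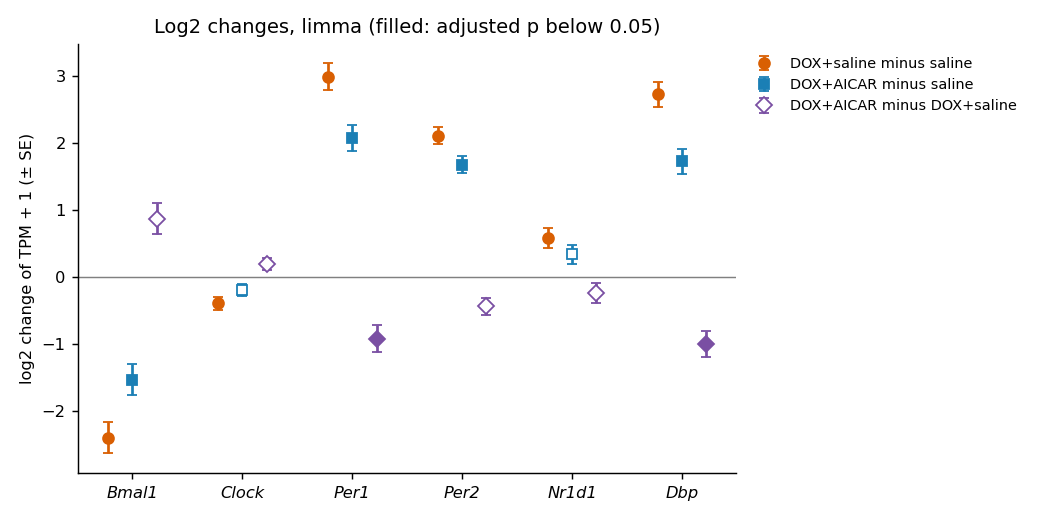
Log2 change of TPM + 1 (vertical axis) with its SE for each gene in the 3 comparisons, from the limma fit on 18 libraries; filled symbols passed adjusted p below 0.05 and open ones did not. The DOX+AICAR changes against saline have the same signs as those of DOX+saline and are smaller in size for each gene; the 2 share the saline animals.

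DOX+AICAR against saline gave the same signs at smaller sizes, in hearts that had doxorubicin and AICAR. Of the 6 members 4 changed, Bmal1 lower and Per1, Per2 and Dbp higher, where 53.3% of genes tested changed (34.8% higher and 18.4% lower, a split that turned to 3207 higher and 4703 lower genes after quantile normalization and to 3735 and 4160 after median-of-ratios scaling), and the same 4 did not overlap with saline, where 34.5% of genes did not. The median absolute log2 change was 1.60 over the 6 and 0.23 over all genes. Bmal1 had 14.9, 13.6, 27.3, 24.7, 21.3 and 14.8 TPM in DOX+AICAR animals 7 to 12, and its log2 change was -1.53 (SE 0.23, limma adjusted p = 3.32e-05). Per1 had 49.4, 73.6, 45.6, 39.9, 39.6 and 45.4 TPM in animals 7 to 12 (log2 change 2.07, SE 0.20, limma adjusted p = 2.62e-07). Per1 of animal 8 lay well above the other 5 animals of its group. Per2 had 21.8, 19.98, 13.98, 14.7, 19.0 and 19.6 TPM (log2 change 1.67, SE 0.13, limma adjusted p = 2.56e-08). Dbp had 80.4, 104, 50.3, 66.4, 50.8 and 71.7 TPM (log2 change 1.72, SE 0.19, limma adjusted p = 1.05e-06). For these 3 genes every DOX+AICAR heart was above every saline heart.

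Clock and Nr1d1 did not pass the test against saline in this group. Clock ranged from 19.8 to 26.5 TPM (median 22.9) and Nr1d1 from 64.7 to 110 TPM (median 77.2), both overlapping with saline. Their log2 changes were -0.20 (SE 0.09, limma adjusted p = 0.0867) and 0.34 (SE 0.15, limma adjusted p = 0.0634). Both calls depended on the processing: Clock passed with median-of-ratios scaling (log2 change -0.31, limma adjusted p = 0.00685) and with quantile normalization (-0.30, 0.00792), and each of them passed in a fit of only the 12 libraries compared (limma adjusted p = 0.0162 for Clock and 0.0499 for Nr1d1). Clock also passed without DOX+saline animal 4 (limma adjusted p = 0.0151) or DOX+AICAR animal 9 (0.0483), and Nr1d1 without saline animal 52 (0.0357) or 53 (0.0401), DOX+saline animal 2 (0.0292) or DOX+AICAR animal 9 (0.0369). The DOX+saline animals are in neither group compared here and enter only through the shared estimate of spread and the adjustment. Leaving them out kept the log2 changes at -0.20 and 0.34, with SEs of 0.06 for Clock and 0.12 for Nr1d1.

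Both doxorubicin groups were then set against each other. They differ in AICAR and also in number block (animals 1 to 6 and 7 to 12), and the 2 cannot be told apart. With AICAR, Per1 and Dbp were lower and 4 members did not pass, where 1.33% of the 14732 genes tested changed and 0.753% were lower. That share rests on 196 genes called, a count that went to 16 in a fit of only the 12 libraries compared, to 1058 with array weights, and to between 36 and 461 when 1 animal was left out (lowest without DOX+AICAR animal 10, highest without DOX+saline animal 2). The same 2 genes did not overlap between the groups, against 1.51% of all genes. The median absolute log2 change was 0.65 over the 6 members and 0.09 over all genes. Dbp changed by -0.998 (SE 0.19, limma adjusted p = 0.024), with 104 TPM in the highest DOX+AICAR heart and 109 TPM in the lowest DOX+saline heart. Per1 changed by -0.92 (SE 0.20, limma adjusted p = 0.0359), with 73.6 TPM in the highest DOX+AICAR heart and 82.0 TPM in the lowest DOX+saline heart.

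These AICAR calls stood near the threshold, and leaving out 1 animal could end them. The adjusted p also moves with the other genes tested. Without DOX+saline animal 6, Per1 had an unadjusted limma p of 0.000339 and lost its call, in a fit that called 48 genes. Without DOX+saline animal 2 it had 0.000476 and kept its call, in a fit that called 461. A lost call thus does not show that the animal left out carried the difference. Per1 lost its call in 8 of 18 fits that left out 1 animal, without DOX+saline animal 1, 3, 4 or 6 or DOX+AICAR animal 9, 10, 11 or 12 (limma adjusted p from 0.0567 to 0.0757). Dbp lost it without DOX+saline animal 3 (limma adjusted p = 0.0521) and without DOX+AICAR animal 9 (0.0529) or 10 (0.0548), and in a fit of only the 12 libraries compared (0.0825), whereas Per1 passed in that fit (0.0255). The log2 changes moved little over the fits without 1 animal, from -1.04 to -0.86 for Per1 and from -1.12 to -0.85 for Dbp.

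The other 4 members had smaller or less even differences. Bmal1 was at a log2 difference of 0.87 (SE 0.23, limma adjusted p = 0.07), and it passed with array weights (0.82, limma adjusted p = 0.0216) and without DOX+saline animal 2 (0.998, 0.0285). Its groups overlapped, since DOX+saline animal 2 had 15.9 TPM and DOX+AICAR animals 7, 8 and 12 had 14.9, 13.6 and 14.8 TPM. Per2 was at -0.44 (SE 0.13, limma adjusted p = 0.0874), Nr1d1 at -0.24 (SE 0.15, limma adjusted p = 0.409) and Clock at 0.20 (SE 0.09, limma adjusted p = 0.283). For each of the 6 genes the DOX+AICAR mean lay between those of the other groups, which was so for 51.4% of the 14732 genes tested.

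The balance between the clock genes in each heart was described by the log2 ratio of a gene to Bmal1 within the same library, a measure that does not change with library scaling apart from the 1 TPM added to each value. Dbp over Bmal1 lay between -1.78 and -1.06 in saline hearts. It lay between 2.70 and 5.49 in the DOX+saline hearts, and between 0.86 and 2.85 with AICAR. Saline hearts thus had more Bmal1 than Dbp, and all 12 doxorubicin hearts had more Dbp than Bmal1. Per2 over Bmal1 averaged -3.26 ± 0.07 in saline hearts, 1.25 ± 0.87 after DOX+saline and -0.06 ± 0.64 after DOX+AICAR (SD, n = 6), and Per1 over Bmal1 averaged -2.29 ± 0.58, 3.09 ± 0.70 and 1.30 ± 0.67. Nr1d1 over Bmal1 averaged 0.18 ± 0.33, 3.16 ± 0.51 and 2.05 ± 0.58 in the same order. All 4 ratios were apart from saline in both doxorubicin groups (exact permutation p = 0.00216 each, the smallest that the assignments can give, two-sided, adjusted p = 0.00289 over the 12 ratio comparisons). Bmal1 alone was already apart from saline in both, and each ratio carries that difference again. For DOX+saline against saline, Nr1d1 over Bmal1 differed by 2.98, with log2 changes of 0.58 for Nr1d1 and -2.40 for Bmal1.

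Between the doxorubicin groups the ratios were lower with AICAR. Per1 over Bmal1 differed by -1.79 without overlap (exact permutation p = 0.00216, adjusted p = 0.00289). Dbp over Bmal1 differed by -1.87 (exact permutation p = 0.00433, adjusted p = 0.00519), Per2 over Bmal1 by -1.30 and Nr1d1 over Bmal1 by -1.11 (exact permutation p = 0.00649 and adjusted p = 0.00649 for each), and these 3 overlapped. All 4 ratios share Bmal1, so they are not independent of each other. Their p-values are adjusted over 12 ratio comparisons and not over all genes tested. Taken singly in the limma fit, Bmal1 (log2 change 0.87), Per2 (-0.44) and Nr1d1 (-0.24) did not pass between these groups. Ordered by Dbp over Bmal1, the 18 hearts ran from saline animal 54 through the 6 saline hearts, then DOX+AICAR animals 9, 11, 10, 12 and 7, DOX+saline animal 2, DOX+AICAR animal 8 and DOX+saline animals 6, 1, 5, 3 and 4. One heart of each doxorubicin group thus sat among those of the other. The library numbers of the 3 groups, which run from 1 to 18, interleave.

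**Figure D3:**
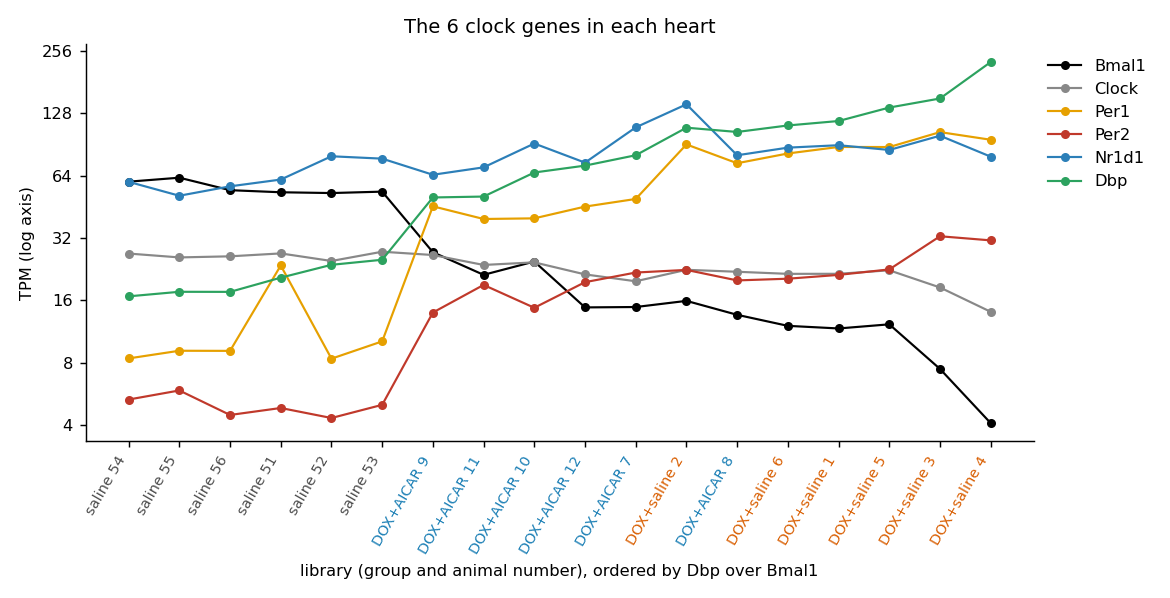
Levels of the 6 genes in TPM (vertical axis, log scale) in each of the 18 hearts, ordered along the horizontal axis by Dbp over Bmal1; lines join the values of a gene and stand for no time course. Bmal1 runs from 59.9 TPM in saline animal 54 at the left to 4.08 TPM in DOX+saline animal 4 at the right, while Dbp runs from 16.7 to 227 TPM; the order itself uses these 2 genes.

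Whether the genes also moved together among animals given the same treatment was asked after subtracting each group's mean, over 18 hearts and 15 pairs of genes. Bmal1 and Clock rose and fell together (Pearson r = 0.93, permutation p = 0.00025, adjusted p = 0.00187; Spearman rho = 0.91, permutation p = 0.00051, adjusted p = 0.00382). Bmal1 and Dbp ran opposite (Pearson r = -0.85, permutation p = 8.0e-05, adjusted p = 0.0012; Spearman rho = -0.82, permutation p = 0.00028, adjusted p = 0.00382). Bmal1 and Per2 ran opposite as well (Pearson r = -0.75, permutation p = 0.00605, adjusted p = 0.0181; Spearman rho = -0.78, permutation p = 0.00472, adjusted p = 0.0142). Without the 2 hearts farthest from the median in Bmal1, DOX+saline animals 2 and 4, these r values were 0.86, -0.77 and -0.75. Leaving out DOX+saline animal 4 alone ended the call for Bmal1 with Per2 (r = -0.72, adjusted permutation p = 0.0564), while Bmal1 with Clock and with Dbp passed in each of 18 such recomputations. Clock with Per2 (r = -0.75, permutation p = 0.00388, adjusted p = 0.015) and Clock with Dbp (r = -0.75, permutation p = 0.00401, adjusted p = 0.015) also passed. Their Spearman rho values were -0.81 (permutation p = 0.00232, adjusted p = 0.0116) and -0.70 (permutation p = 0.00424, adjusted p = 0.0142). Without the 2 hearts farthest in Clock, DOX+saline animal 4 and DOX+AICAR animal 7, r was -0.71 for Clock with Per2 and -0.58 for Clock with Dbp. In the 5 pairs that passed with all 18 hearts, Bmal1 and Clock ran together and both ran opposite to Per2 and Dbp; the 2 pairs of Clock were not recomputed with single animals left out in turn.

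Nr1d1 and Per1 did not follow this pattern beyond the threshold. The 5 pairs with Nr1d1 had r from -0.02 to 0.18 (lowest adjusted permutation p = 0.708). Bmal1 and Nr1d1 had r = 0.12, and r = -0.46 without DOX+saline animals 2 and 4. Bmal1 and Per1 had r = -0.31 (permutation p = 0.0221, adjusted p = 0.0552; Spearman rho = -0.36, permutation p = 0.0917, adjusted p = 0.153), and r = -0.42 without DOX+saline animals 2 and 4. Without centring, r of Bmal1 with Per1 was -0.92, a value set by the distance between the groups.

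The same pairs were then taken within single groups of 6. Bmal1 with Clock had r = 0.98 in DOX+saline (exact permutation p = 0.00278), 0.90 in DOX+AICAR (exact permutation p = 0.025) and -0.0047 in saline (exact permutation p = 0.983). Bmal1 with Dbp had r = -0.96 in DOX+saline (exact permutation p = 0.00833), -0.83 in DOX+AICAR (exact permutation p = 0.05) and -0.72 in saline (exact permutation p = 0.108). Bmal1 with Per2 had r = -0.83 in DOX+saline (exact permutation p = 0.0597), -0.90 in DOX+AICAR (exact permutation p = 0.00833) and 0.88 in saline (exact permutation p = 0.0153), so its sign in saline was the other way. Of 45 such values over 15 pairs and 3 groups, 0 passed after adjustment (lowest adjusted p of these exact permutation tests 0.075), and 11 had an unadjusted p below 0.05. By Spearman rho, 5 had an unadjusted exact permutation p below 0.05, and the lowest adjusted p was 0.292. For Bmal1 with Per2 in DOX+saline, rho was -0.49 (exact permutation p = 0.356). Differences between the groups in these relations were not tested.

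**Figure D4:**
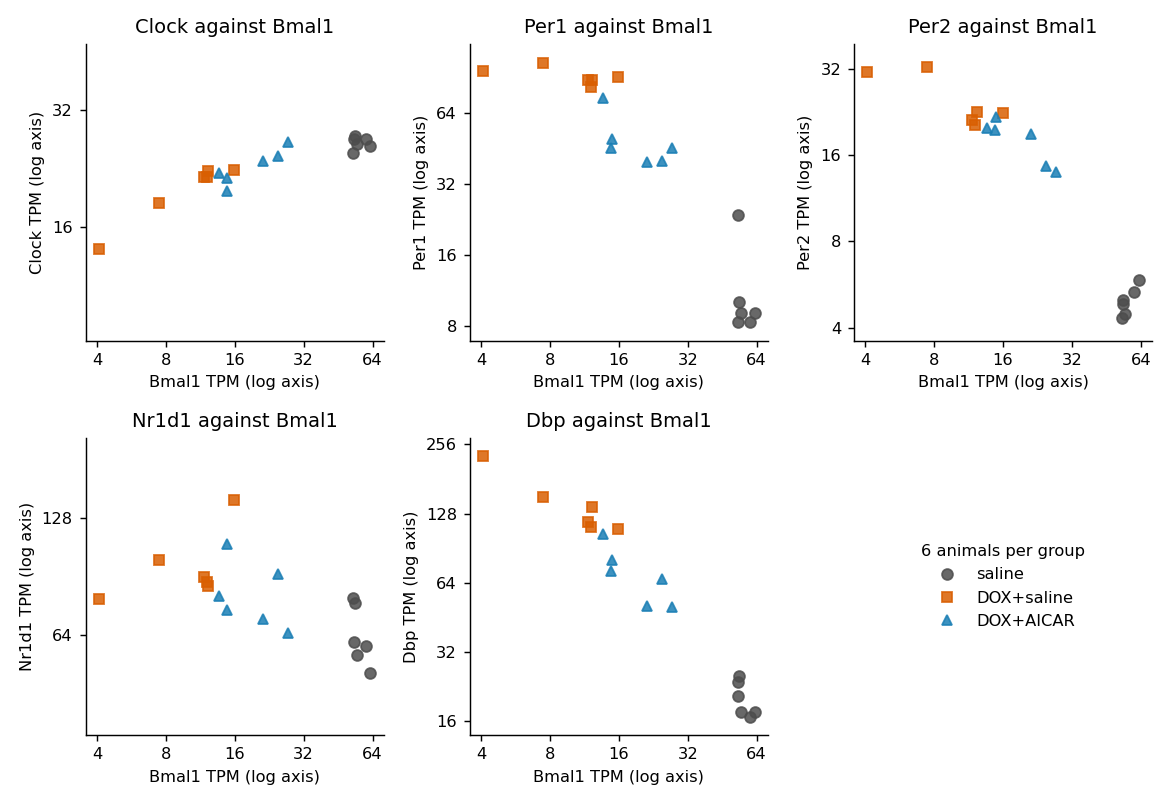
Each of the other 5 genes (vertical axis, TPM, log scale) against Bmal1 (horizontal axis, TPM, log scale) in 18 hearts, marked by group. With both doxorubicin groups pooled, Dbp and Per2 fall as Bmal1 rises and Clock rises with it, and differences in level between these groups enter this. Within DOX+saline the ranks of Bmal1 and Per2 were less closely related (Spearman rho = -0.49, exact permutation p = 0.356). The saline hearts form a separate cluster at 52.8 to 62.6 TPM of Bmal1.

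The genes whose pattern was most like that of Bmal1 or Dbp were looked for among the other 14726 genes tested, by Pearson r of group-centred log2(TPM + 1) over 18 hearts. For Bmal1 they were ENSRNOG00000025926 (r = 0.88) and ENSRNOG00000013408 (r = 0.87). Saline hearts averaged 8.56 ± 0.211 TPM of the first, against 9.46 ± 0.869 TPM after DOX+saline. For the second these means were 12.9 ± 0.579 and 6.58 ± 2.26 TPM (SD, n = 6), so of the pair the second had the lower mean after DOX+saline, as Bmal1 had. For Dbp they were ENSRNOG00000019383 (r = 0.84), with means of 48.5 ± 5.10 and 84.8 ± 14.7 TPM in saline and DOX+saline hearts, and ENSRNOG00000003515 (r = 0.84), with 17.9 ± 1.33 and 55.6 ± 8.56 TPM (SD, n = 6). Both means were higher after DOX+saline, as that of Dbp was. These are the top of a ranking and carry no test, and the table gives them no names. Other clock genes, such as the Cry genes, Per3 and Nr1d2, and markers of heart cell types were not analysed here, because 0 of the 32545 identifiers matched the reference gene table.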

How the data were processed

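RNA of 18 rat hearts was sequenced as stranded, paired-end libraries of polyadenylated RNA, per the labels' protocols. Per the submitters' processing notes, bcl2fastq 2.17.1.14, HISAT2, featureCounts and Subread 1.5.0 were used with the build Rnor_6.0; annotation release and strand setting: not given in the sources used here. The deposited values are TPM made by the authors, which sum to 1000000 per library.

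Members and lists were chosen with earlier results of these data known. The 14732 genes reaching 1 TPM in 6 or more libraries were tested with limma 3.58.1 (R 4.3.3) on log2(TPM + 1), with a mean per group over all 18 libraries and a mean-variance trend; p-values were two-sided, Benjamini-Hochberg adjusted over all genes tested, and called below 0.05. All groups thus share one estimate of spread. A fold on this scale understates changes of low genes. Each library carries its own animal number, so replicates are separate rats. Two-sided exact permutation tests served for the ratios, and for correlations 100000 permutations within groups, or all 720 pairings within a group. Group-centred values keep the differences in spread between groups. Whole reads were recovered from steps in the TPM values for 100% of 20828 genes above 0 in at least 6 libraries, within 0.001 reads. Intervals from them cover counting error only, since the reads carry no molecular identifiers. The fits were tested on simulated data. Named genes are the 6 members, plus the 2 identifiers most like Bmal1 and the 2 most like Dbp.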

Additional observations from a re-analysis of the deposited data

Results flagged for a closer look

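Each group of 6 values was checked for an animal far from the others, by the gap to its nearest neighbour as a share of the group's range. Of 30 groups (6 genes and 4 ratios, 3 treatments) 5 had such an animal, where chance gives about 1 in 20, or 1.5 here. The genes share animals, so the 30 are not independent.

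Saline animal 51 had 23.6 TPM of Per1, where the other 5 saline hearts had 8.37 to 10.1 TPM. The same heart stood apart in Per1 over Bmal1, at -1.14 against -2.70 to -2.29, and for the other 5 genes it was neither the highest nor the lowest of its group. Without it, the log2 change of Per1 in DOX+saline against saline was 3.20, and that of DOX+AICAR against DOX+saline, -0.92 either way, had a limma adjusted p of 0.00322 in place of 0.0359.

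DOX+AICAR animal 8 had 73.6 TPM of Per1, where the other 5 had 39.6 to 49.4 TPM. It also had the highest Dbp (104 TPM) and the lowest Bmal1 (13.6 TPM) of its group.

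DOX+saline animal 2 had 142 TPM of Nr1d1, where the other 5 had 79.2 to 99.9 TPM, along with the highest Bmal1 (15.9 TPM) and the lowest Dbp (109 TPM) of its group.

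DOX+saline animal 4 had 227 TPM of Dbp, where the other 5 had 109 to 151 TPM, along with the lowest Bmal1 (4.08 TPM), Clock (14.1 TPM) and Nr1d1 (79.2 TPM) of its group.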

How the results depend on the processing

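Voom on recovered reads was chosen after seeing the data. For DOX+saline against saline, all 156 recomputed log2 changes of the 6 genes kept their direction and side of the threshold. So did all 168 recomputed values of the 12 ratio results, over the 3 comparisons. Over all genes, the median log2 change in that comparison was 0.10 as fitted, -0.06 after quantile normalization and -0.0053 after median-of-ratios scaling. For DOX+AICAR against saline, Clock passed with quantile normalization (-0.30), median-of-ratios scaling (-0.31) and only the 12 libraries compared (-0.20), with -0.24 to -0.16 without 1 animal. Nr1d1 passed with the 12 libraries (0.34) and array weights (0.33), with 0.25 to 0.40 without 1 animal. For DOX+AICAR against DOX+saline, the 196 genes called became 321 with quantile normalization, 16 with the 12 libraries, 1058 with array weights and, with 1 animal left out, between 36 (animal 10, DOX+AICAR) and 461 (animal 2, DOX+saline). In that comparison Dbp did not pass with the 12 libraries (-0.998) and ranged from -1.12 to -0.85 without 1 animal, Per1 from -1.04 to -0.86 and Bmal1 from 0.65 to 0.998, with 0.82 under array weights. Without centring, r of Bmal1 with Nr1d1 turned to -0.60 from 0.12, and r with Per1 was -0.92; groups that lie apart enter these values. The centred r of Bmal1 with Nr1d1 was -0.17 without DOX+saline animal 2 and -0.11 without animal 4, not passing in either. Without 1 animal, r of Bmal1 with Per1 ranged from -0.49 to -0.21, passing without saline animal 52 or 55 or DOX+AICAR animal 9 or 12, and r with Per2 from -0.81 to -0.71, not passing without DOX+saline animal 4 (-0.72). No paired analysis was possible because the groups share no animal numbers. Depth limits none of the 6 genes, as the lowest value rests on 163 reads.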

Other observations

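The spread of the clock genes among animals given the same treatment can be set beside that of other genes of like level, here genes whose group mean lay within a factor of 1.5. In DOX+saline the SD of log2(TPM + 1) was 0.62 for Bmal1, larger than in 94.3% of 2624 such genes, and 0.39 for Dbp, larger than in 96.1% of 1115. In DOX+AICAR it was 0.41 for Bmal1 (95.1% of 3037 genes) and 0.40 for Dbp (96.4% of 2076). The SD of Clock was larger than in 79.6% of like genes in DOX+saline and 64.3% in DOX+AICAR. These shares were 86.2% and 85.9% for Per2, and 91.2% and 93.0% for Nr1d1. In saline the SD of Bmal1 was 0.10, larger than in 65.0% of 2226 genes, and that of Clock 0.05, larger than in 10.8% of 2892. That of Per2 in saline was 0.14, larger than in 39.4% of 1828. Dbp (0.24, larger than in 91.9% of 2931) and Nr1d1 (0.25, larger than in 95.9% of 2067) already varied more than most like genes in saline. The SD of Per1 was 0.54 in saline (96.8% of 2526 genes), where animal 51 stood apart, 0.12 in DOX+saline (49.1% of 1682) and 0.32 in DOX+AICAR (94.6% of 2502). These percentages describe the libraries and carry no test.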
